A study of Mus musculus with 6 samples.

Results

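The genes examined here encode bromodomain proteins other than Brwd1 and its close relatives. They were chosen by name, 31 genes in all, by a rule that used no measured difference, although earlier results of these data were known. Each was represented by its brightest probe set that the array annotation assigned to 1 gene symbol. Of the 31 genes, 29 had such a probe set, out of 23410 named probe sets tested in the series. Ash1l had no probe set under its symbol, and Sp110 appeared only on probe sets that list several genes.

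The samples were oocytes at the germinal vesicle stage, when meiosis is arrested in prophase. Brwd1 encodes a bromodomain and WD repeat protein, and the study asked what its mutation does to the oocyte transcriptome. One group came from mice homozygous for a Brwd1 mutation and the other from wildtype mice, all females on a B6/C3H background and 2 to 6 months old. Females of both groups received 5 IU of equine chorionic gonadotropin, which stimulates follicle growth, 44 h before collection. Each group had 3 samples, and 100 oocytes were pooled for a sample and its Affymetrix Gene ST array. The labels used here state neither the kind of mutant allele nor which animals gave which pool. The p-values therefore reflect the scatter of these pools alone, part of which may be technical. In pools of cells, fewer cells of a type and less RNA per cell cannot be told apart.

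A bromodomain is a small protein fold that binds acetylated lysine, chiefly on histone tails. Proteins that carry one are usually the part of a larger machine that recognises acetylated chromatin: they recruit the transcription machinery, position acetyltransferases, or anchor complexes that slide and evict nucleosomes. A growing oocyte stores transcripts made before its chromatin condenses and transcription stops, and the arrays used here do not tell stored from newly made transcripts.

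Across the 29 genes, no member passed the threshold between Brwd1 mutant and wildtype oocytes. With limma on the log2 values and Benjamini-Hochberg adjustment over all probe sets tested, 0 of 29 had an adjusted p under 0.05, where 0.137% of all probe sets did (0.0384% higher and 0.0982% lower in the mutant). At an unadjusted p under 0.05 limma gave 3 of the 29 (10.3%), against 14.7% of all probe sets. These 3 were Brd9 and Zmynd8, lower in the mutant (2 of 29, against 7.40% of all probe sets), and Zmynd11, higher in the mutant (1 of 29, against 7.30%). The groups did not overlap for 6 of the 29 (20.7%), against 19.7% of all probe sets. Of these, Zmynd11 and Baz2a were higher in the mutant (2 of 29, against 10.1%), and Brd9, Zmynd8, Brd2 and Trim24 lower (4 of 29, against 9.66%). All of these shares were near the background, so they give no result about bromodomain genes as a set.

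The 3 genes with the smallest p-values are given here with the 300 bases around a RefSeq start, 250 before and 50 after. The start is the most upstream of those listed for the gene in the source used here (build GRCm38.p6, gene strand). The sequences set what lies at these starts beside the levels of the genes. Capitals mark CpG dinucleotides, which are dense at the promoters of many broadly expressed genes.

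Brd9, at chr13:73937561-73937860 on the plus strand, with 40 CpG: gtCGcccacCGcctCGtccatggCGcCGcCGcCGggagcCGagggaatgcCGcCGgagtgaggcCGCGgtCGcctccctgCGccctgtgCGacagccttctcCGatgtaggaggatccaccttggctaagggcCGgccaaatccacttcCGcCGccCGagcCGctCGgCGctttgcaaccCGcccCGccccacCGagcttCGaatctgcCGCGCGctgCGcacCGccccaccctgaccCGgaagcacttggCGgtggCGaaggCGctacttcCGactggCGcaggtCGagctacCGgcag
Zmynd8, at chr2:165884789-165885088 on the minus strand, with 8 CpG: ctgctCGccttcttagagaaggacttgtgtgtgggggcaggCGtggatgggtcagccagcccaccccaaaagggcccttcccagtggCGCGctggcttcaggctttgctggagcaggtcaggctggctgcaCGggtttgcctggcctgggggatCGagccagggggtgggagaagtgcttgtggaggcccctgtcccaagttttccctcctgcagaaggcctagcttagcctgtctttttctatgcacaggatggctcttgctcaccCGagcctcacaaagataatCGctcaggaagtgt
Zmynd11, at chr13:9765272-9765571 on the minus strand, with 9 CpG: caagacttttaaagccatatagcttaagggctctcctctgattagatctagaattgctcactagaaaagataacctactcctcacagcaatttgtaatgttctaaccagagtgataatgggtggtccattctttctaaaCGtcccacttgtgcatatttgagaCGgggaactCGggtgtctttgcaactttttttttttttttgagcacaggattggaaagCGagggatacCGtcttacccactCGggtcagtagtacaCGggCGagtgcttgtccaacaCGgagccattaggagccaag

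The 3 sequences differ in kind. The Brd9 sequence has a GC content of 72.0%, that of Zmynd8 60.3% and that of Zmynd11 44.3%. The listed start of Zmynd8 lies 14143 bases inside the annotated gene, and that of Zmynd11 693 bases inside, so those windows are internal starts. RefSeq starts were found for 25 of the 31 genes. The windows of Baz2b, Brd3, Sp140, Trim66 and Taf1, among others, also lie well inside the annotated gene. The shares below therefore describe listed starts, which are not always the outermost promoter. The 25 windows held a median of 29 CpG, against 13 over 17492 windows of protein-coding genes and 7 over all 27025 windows. The GC box GGGCGG, searched on both strands, was in 17 of 25 windows (68.0%), against 46.3% of protein-coding and 35.9% of all windows. For the other motifs, also searched on both strands, the shares of protein-coding and then of all windows follow. The CCAAT box CCAAT was in 8 of 25 (32.0%, against 39.2% and 38.0%) and the ETS core CCGGAA in 7 (28.0%, against 19.1% and 15.2%). The E-box CACGTG was in 3 (12.0%, against 7.9% and 7.2%) and the TATA box TATAAA in 2 (8.0%, against 13.3% and 14.2%). The NRF1 palindrome was in 1 (4.0%, against 1.3% and 1.0%). The letters of the ETS core and of the GC box occur in the Brd9 window, those of the CCAAT box in that of Zmynd11, and none of the 6 motifs in that of Zmynd8.

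The labels and the tissue were checked first. Brwd1 had log2 levels of 4.41, 4.56 and 4.50 in mutant 1, 2 and 3, against 8.91, 9.08 and 8.98 in wildtype 1, 2 and 3, a difference of -4.50. No bromodomain gene of the list lies on chromosome 16, that of Brwd1 (0 of 31). All 12 oocyte markers listed for the check were above the background guide, which is the 95th percentile of 1210 olfactory and vomeronasal receptor probe sets, 4.48 on the log2 scale. The mean level of those markers was 10.97 to 10.99 in the mutant and 10.96 to 10.98 in the wildtype arrays. For 12 measured markers of blood, immune and endothelial cells the mean level was 4.63 to 4.74 in the mutant and 4.47 to 4.60 in the wildtype arrays. Of these, 5 lay above the guide (Pecam1, C1qb, Cd68, C1qa and Cdh5), and Ptprc, Lyz2 and Csf1r were among those under it. The differences ran from -0.07 for Cd68 to 0.90 for C1qb, 10 above 0 and 2 below. For 12 granulosa and cumulus markers the mean level was 4.80 to 4.92 in the mutant and 4.72 to 4.75 in the wildtype arrays. Of these, 6 lay above the guide (Nr5a2, Hsd17b1, Foxl2, Inhbb, Has2 and Inhba), with Has2 at a difference of 0.49, and Fshr and Amh were among those under it. For 8 theca and stroma markers the mean level was 4.39 to 4.46 in the mutant and 4.34 to 4.36 in the wildtype arrays. Of these, 3 lay above the guide (Col1a1, Col1a2 and Col3a1), with Col3a1 at a difference of 0.27, and Cyp17a1 and Star were under it. Among the markers of other cells, the groups did not overlap for Col3a1, Col1a1, C1qb and Amhr2, all higher in the mutant. Of all probe sets, 10.1% were higher in the mutant without overlap. In each of the 3 lists of other cells the mean level of every mutant array lay above that of every wildtype array. The median difference was 0.10 for granulosa and cumulus markers and 0.068 for each of the other 2 lists. Dim probe sets of the whole series also ran higher in the mutant. Their median difference was 0.067 in the tenth with a median level of 4.41 and 0.073 in that with 4.95. In all 4 lists, 0 markers had a limma adjusted p under 0.05. The part of other cells in the results below was not tested.

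Most bromodomain genes gave a strong signal in these oocytes. Of the 29 probe sets, 28 lay above the background guide, 27 above the middle of all tested probe sets and 19 above their 75th percentile. Their mean levels ran from 4.05 for Trim66, at percentile 27.5, to 10.22 for Cecr2, at percentile 95.1. Cecr2, Baz1b at percentile 93.0 and Bptf at 91.3 were the 3 above percentile 90, and all belong to remodelling complexes built on ISWI-type motors. Brpf1 at percentile 62.5, Kmt2a at 62.8 and Taf1 at 67.3 were the lowest apart from Trim66 and Sp100. These ranks describe the signal of a probe set, which also depends on its probes, and do not order the transcripts by abundance.

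**Figure D1:**
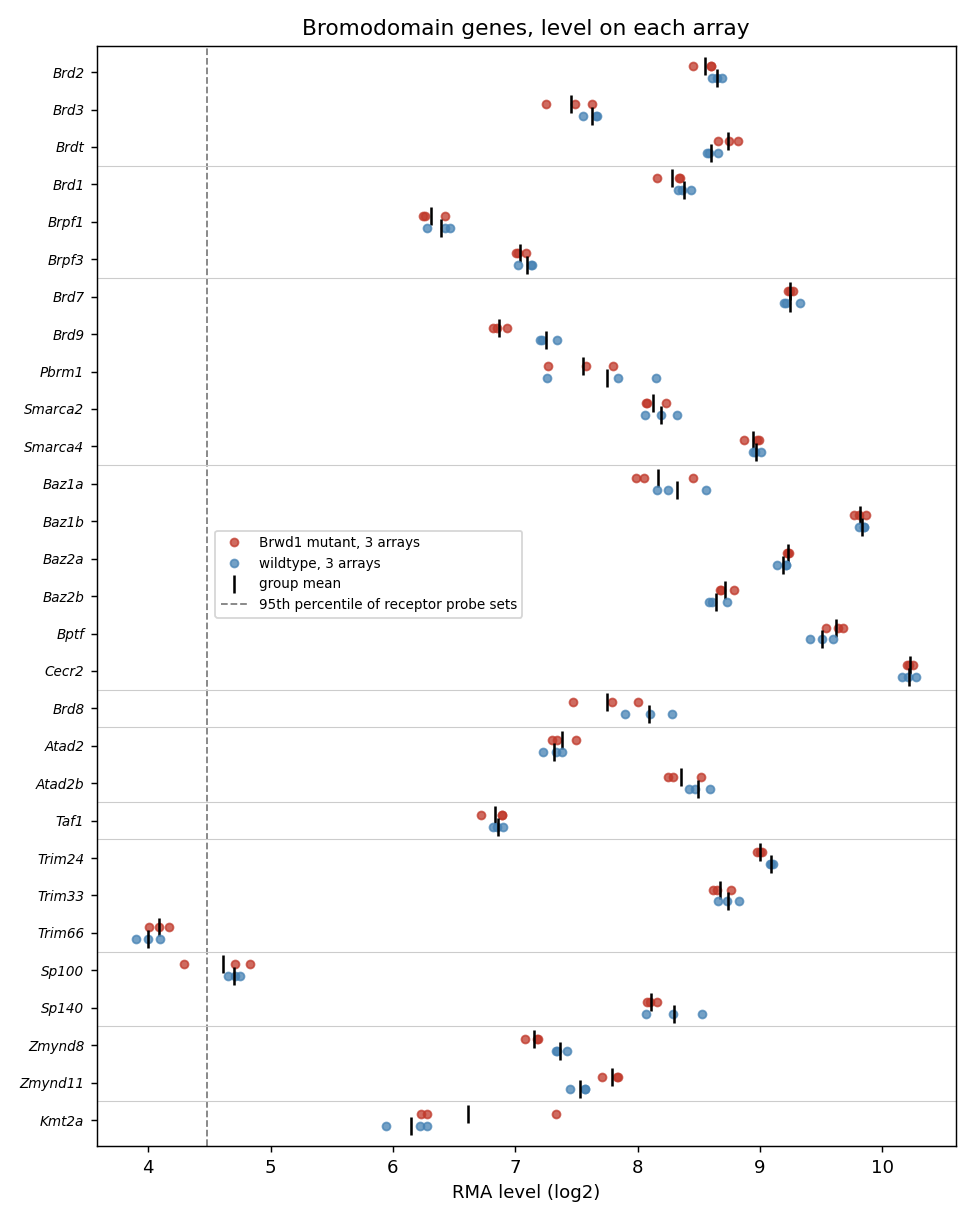
RMA level (log2, horizontal) of each bromodomain gene on each of the 3 Brwd1 mutant (red, upper) and 3 wildtype (blue, lower) arrays, with the group means as black bars and the background guide of 4.48 as a dashed line. Only Trim66 lies wholly left of the guide, Brd9, Zmynd8 and Zmynd11 show separated groups, and Kmt2a has 1 mutant array far from the other 5.

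Among the subunits of SWI/SNF, the ATP-driven complex that slides and evicts nucleosomes, Brd9 had the smallest p-value of all 29 genes. Brd9 marks a form of the complex known as non-canonical BAF, and its bromodomain is close to that of Brd7, which marks another form, PBAF. The Brd9 level was 6.93, 6.85 and 6.82 in mutant 1, 2 and 3, against 7.34, 7.22 and 7.20 in wildtype 1, 2 and 3. Every mutant array lay below every wildtype array. The log2 difference was -0.39 (SE 0.065, 95% confidence interval -0.54 to -0.23), a mutant level 0.765 times that of the wildtype, and it did not pass (limma, adjusted p = 0.122). Without 1 array the difference stayed between -0.42 and -0.34. Across the 14 alternatives tried, the limma adjusted p ran from 0.0916 to 0.275.

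The other SWI/SNF members gave smaller differences. Brd7 was at 9.27, 9.23 and 9.25 in the mutant and 9.21, 9.20 and 9.33 in the wildtype arrays, a difference of 0.0033 with an interval of -0.14 to 0.15. For the motor ATPases, Smarca4 differed by -0.02 (interval -0.17 to 0.12) and Smarca2 by -0.06 (interval -0.27 to 0.14). Smarca4 is the motor whose maternal store mouse embryos need when their own genome is switched on. Pbrm1, which carries several bromodomains and belongs to PBAF, was at 7.58, 7.80 and 7.27 in the mutant and 7.84, 7.26 and 8.15 in the wildtype arrays. The arrays of each group scattered over a wider range than the difference between the groups, and its other probe sets differed by 0.14 and 0.05, against -0.20 for the brightest.

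For the ZMYND readers, the 2 genes stood on opposite sides of 0 and the groups of neither overlapped. Zmynd11, which binds methylated histone in transcribed gene bodies and restrains elongation, was at 7.83, 7.84 and 7.71 in the mutant, against 7.57, 7.57 and 7.45 in the wildtype arrays. Every mutant array lay above every wildtype array, with a log2 difference of 0.26 (SE 0.067, interval 0.10 to 0.42; limma, adjusted p = 0.186). Zmynd8, a reader that recruits repressive chromatin complexes, was at 7.18, 7.08 and 7.19 in the mutant, against 7.42, 7.34 and 7.33 in the wildtype arrays. Every mutant array lay below every wildtype array, with a difference of -0.21 (SE 0.061, interval -0.36 to -0.07; limma, adjusted p = 0.215). Neither passed. Without 1 array the difference ran from 0.22 to 0.31 for Zmynd11 and from -0.23 to -0.18 for Zmynd8.

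**Figure D2:**
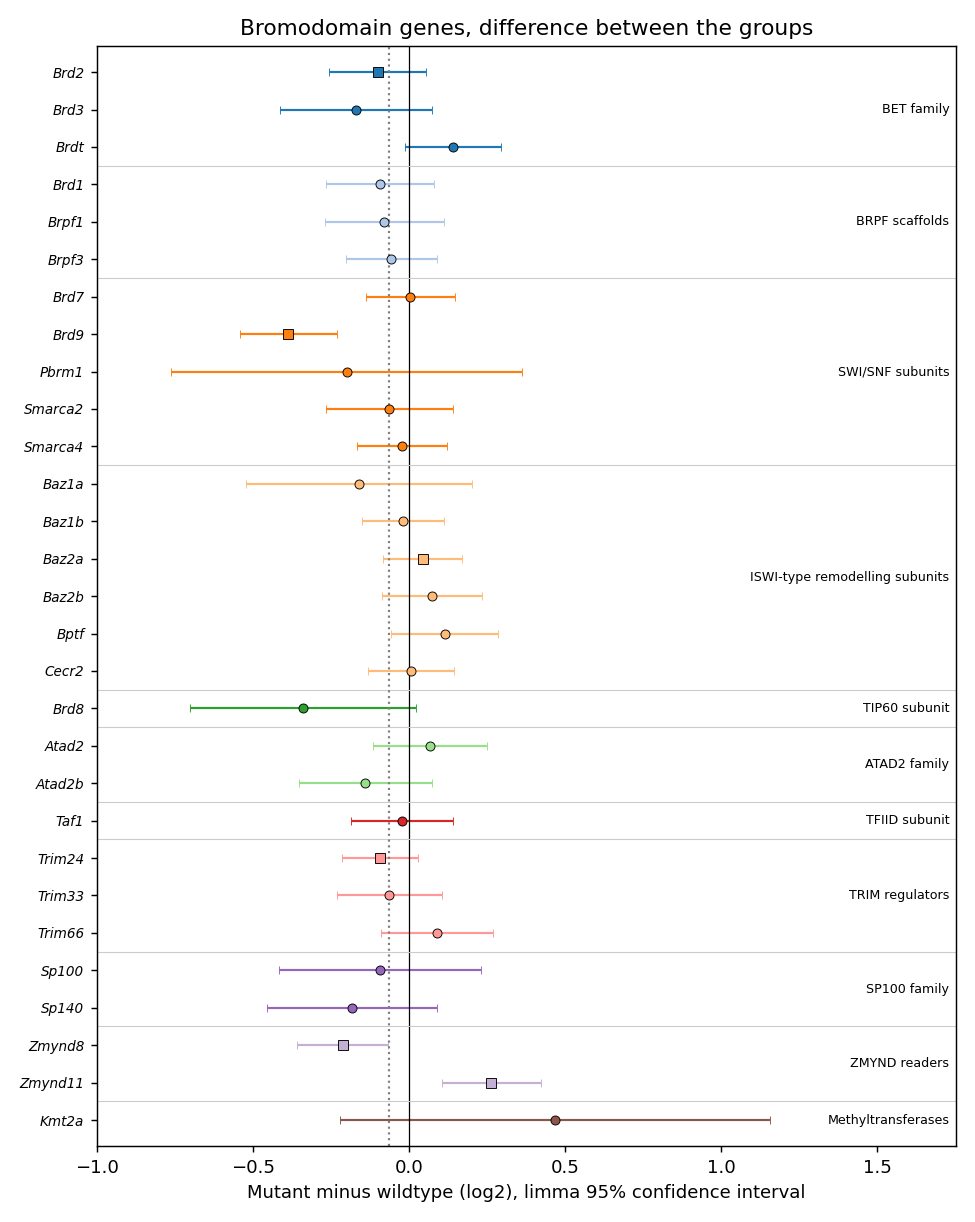
Log2 difference, mutant minus wildtype, of the 29 bromodomain genes with limma 95% confidence intervals, coloured and grouped by role, with squares for genes whose groups do not overlap and circles for the rest. The dotted line is the median of -0.063, and the intervals of Brd9, Zmynd8 and Zmynd11 leave out 0 before adjustment for multiple tests.

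The BET family, whose tandem bromodomains bring elongation factors to acetylated promoters, did not move one way. Brdt, the member that mouse spermatocytes and spermatids need, had a clear signal in these oocytes, at 8.66, 8.75 and 8.82 in the mutant and 8.58, 8.57 and 8.66 in the wildtype arrays. The groups touched at 8.66, and the difference was 0.14 (interval -0.01 to 0.29; limma, adjusted p = 0.380). Brd2 was at 8.45, 8.60 and 8.60 in the mutant and 8.61, 8.69 and 8.65 in the wildtype arrays. Its groups were parted by a single step in the last decimal, and the difference was -0.10 (interval -0.26 to 0.06). Brd3 was at 7.49, 7.63 and 7.25 in the mutant and 7.55, 7.66 and 7.67 in the wildtype arrays, with overlapping groups and a difference of -0.17 (interval -0.41 to 0.07).

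The BRPF scaffolds hold MYST-family acetyltransferases on chromatin. All 3 had negative differences, with overlapping groups. Brd1 was at 8.35, 8.34 and 8.16 in the mutant and 8.36, 8.33 and 8.44 in the wildtype arrays, a difference of -0.09. Brpf1 differed by -0.08 (interval -0.27 to 0.11) and Brpf3 by -0.06 (interval -0.20 to 0.09).

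Genes for ISWI-type remodelling subunits, which pair with the motors Smarca5 or Smarca1 to space nucleosomes, gave 6 differences between -0.16 and 0.11, with 4 above 0. Baz2a, a subunit of the complex that silences ribosomal RNA genes, was at 9.23, 9.22 and 9.24 in the mutant and 9.14, 9.21 and 9.21 in the wildtype arrays. Its groups did not overlap, yet the difference was 0.04 (interval -0.08 to 0.17). Baz1b, of the WICH complex, differed by -0.02 (interval -0.15 to 0.11), and Cecr2, which is expressed in gonads, by 0.0067 (interval -0.13 to 0.14). Bptf, the large subunit of NURF, differed by 0.11 on its brightest probe set and by 0.02 on its other one. Baz2b differed by 0.07. Baz1a, of the ACF complex, was at 8.45, 7.99 and 8.05 in the mutant and 8.25, 8.16 and 8.56 in the wildtype arrays, the widest scatter of the 6.

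Brd8, a subunit of the TIP60 acetyltransferase complex, had the largest negative difference after Brd9. It was at 8.00, 7.47 and 7.79 in the mutant and 8.28, 8.10 and 7.90 in the wildtype arrays. Mutant 1 lay above wildtype 3, so the groups overlapped, and the difference was -0.34 (SE 0.153, interval -0.70 to 0.02; limma, adjusted p = 0.367). Without mutant 2 it was -0.20 and without mutant 1 it was -0.46.

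Kmt2a, a methyltransferase of the MLL family, had the largest positive difference, and 1 array carried it. It was at 6.28, 7.33 and 6.23 in mutant 1, 2 and 3, against 5.94, 6.22 and 6.28 in wildtype 1, 2 and 3. Mutant 2 stood apart from all other arrays. The difference was 0.47 (SE 0.290, interval -0.22 to 1.15; limma, adjusted p = 0.501), and without mutant 2 it was 0.11.

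Among the remaining genes, only Trim24 had groups that did not overlap. Trim24, which reads histone tails and acts with nuclear receptors, was at 9.00, 9.02 and 8.98 in the mutant and 9.09, 9.08 and 9.11 in the wildtype arrays. Every mutant array lay below every wildtype array, and the difference was -0.09 (interval -0.22 to 0.03; limma, adjusted p = 0.450). Trim33, a regulator of SMAD signalling, differed by -0.06 (interval -0.23 to 0.10). Trim66 was under the background guide in every array, at 3.90 to 4.17, so its difference of 0.09 lies in the range where the signal cannot be told from background. Taf1, the largest subunit of the general transcription factor TFIID, differed by -0.02 (interval -0.19 to 0.14). The AAA ATPases Atad2 and Atad2b differed by 0.07 and -0.14, and the other probe set of Atad2b by -0.11.

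The SP100 family, nuclear body proteins best known from immune cells, is hard to separate on this array. Sp140 was at 8.10, 8.08 and 8.16 in the mutant and 8.07, 8.29 and 8.53 in the wildtype arrays, with overlapping groups and a difference of -0.18 (interval -0.46 to 0.09). Sp100 lay near background, at 4.71, 4.29 and 4.83 against 4.71, 4.75 and 4.65. A further 9 probe sets list Sp100, Sp110 or Sp140 together with 1 or more other genes, 6 of them with Sp110. They hold 8 different sets of values, with mean levels from 5.21 to 10.39 and differences from -0.37 to 0.17, and none passed (limma, smallest adjusted p 0.293). Signal from this cluster of near-identical copies cannot be assigned to 1 gene, and the strong values for Sp140 share that uncertainty.

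Read together, 19 of the 29 differences were below 0 and 10 above it, where 46.2% of all tested probe sets were below 0 and 52.7% above it. The median of the 29 was -0.063, against 0.010 over all tested probe sets. The difference between the groups varied with level over the whole series. Among the 3159 probe sets with mean levels of 7.26 to 8.71, the interquartile range of the 29 genes, the median was also -0.063 and 65.6% were below 0, against 65.5% of the bromodomain genes. In that band 22.6% of probe sets had an unadjusted p under 0.05 and 25.5% had groups that did not overlap. Normalizing the arrays again moved the median of the 29 to -0.0089 by quantiles and to -0.03 by cyclic loess, while centring on array medians moved it to -0.12.

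**Figure D3:**
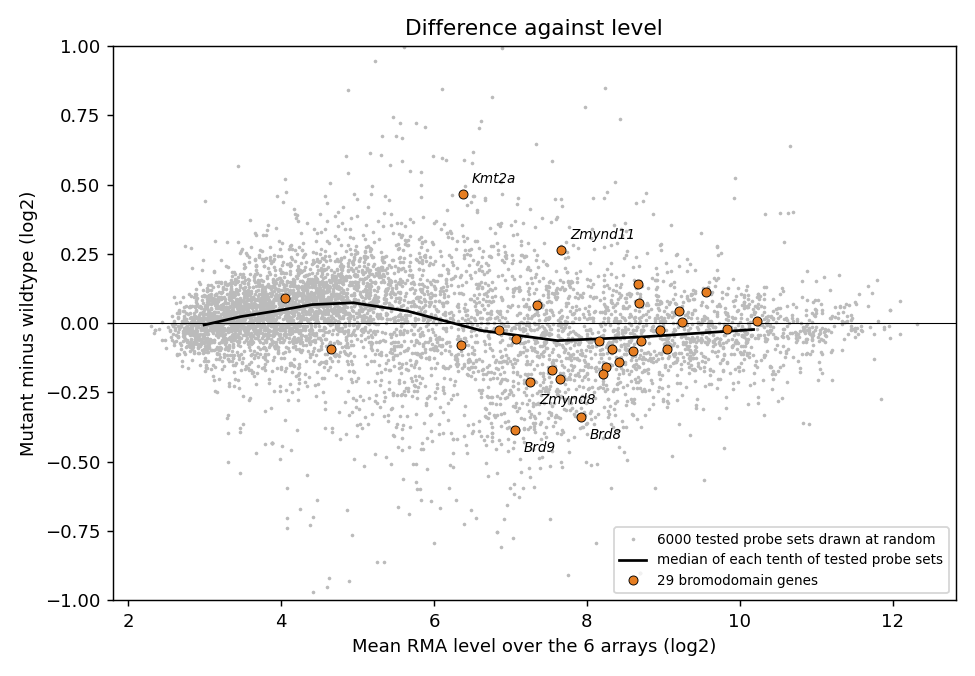
Log2 difference, mutant minus wildtype (vertical), against mean RMA level over the 6 arrays (log2, horizontal) for the 29 bromodomain genes (orange) and 6000 tested probe sets drawn at random (grey, 8 of them beyond the axis). The black line joins the medians of 10 equal bins of all tested probe sets, by level, and is lowest, at -0.063, in the bin with a median level of 7.62, which holds 6 bromodomain genes, and is at -0.05 in the next bin, which holds 13.

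The precision of most genes was enough to bound the change. For 24 of the 29 (82.8%) the 95% confidence interval lay wholly between -0.5 and 0.5 on the log2 scale, as it did for 84.3% of all probe sets. The exceptions were Brd9, Pbrm1, Baz1a, Brd8 and Kmt2a. The median absolute difference was 0.093, against 0.087 over all probe sets.

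The arrays of a group differed in how high they ran for these genes. Wildtype 3 was the highest of the 3 wildtype arrays for 18 of the 29 genes (62.1%), against 32.3% of all probe sets. Baz1a, Pbrm1 and Sp140 were among these, and without wildtype 3 their differences were -0.04, 0.00 and -0.07, against -0.16, -0.20 and -0.18 with all arrays. Mutant 3 was the lowest mutant array for 14 (48.3%), against 29.2%. Without wildtype 3, the groups did not overlap for 14 of the 29 (48.3%), against 31.9% of all probe sets. Without mutant 1 they did not overlap for 11 (37.9%), against 33.0%. Groups of fewer arrays separate more often by construction, in the 29 genes as in all probe sets. The gap between the shares without wildtype 3 was not tested. The number of arrays limits the precision. No member passed in any of these fits (limma, 0 of 29 at an adjusted p under 0.05).

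**Figure D4:**
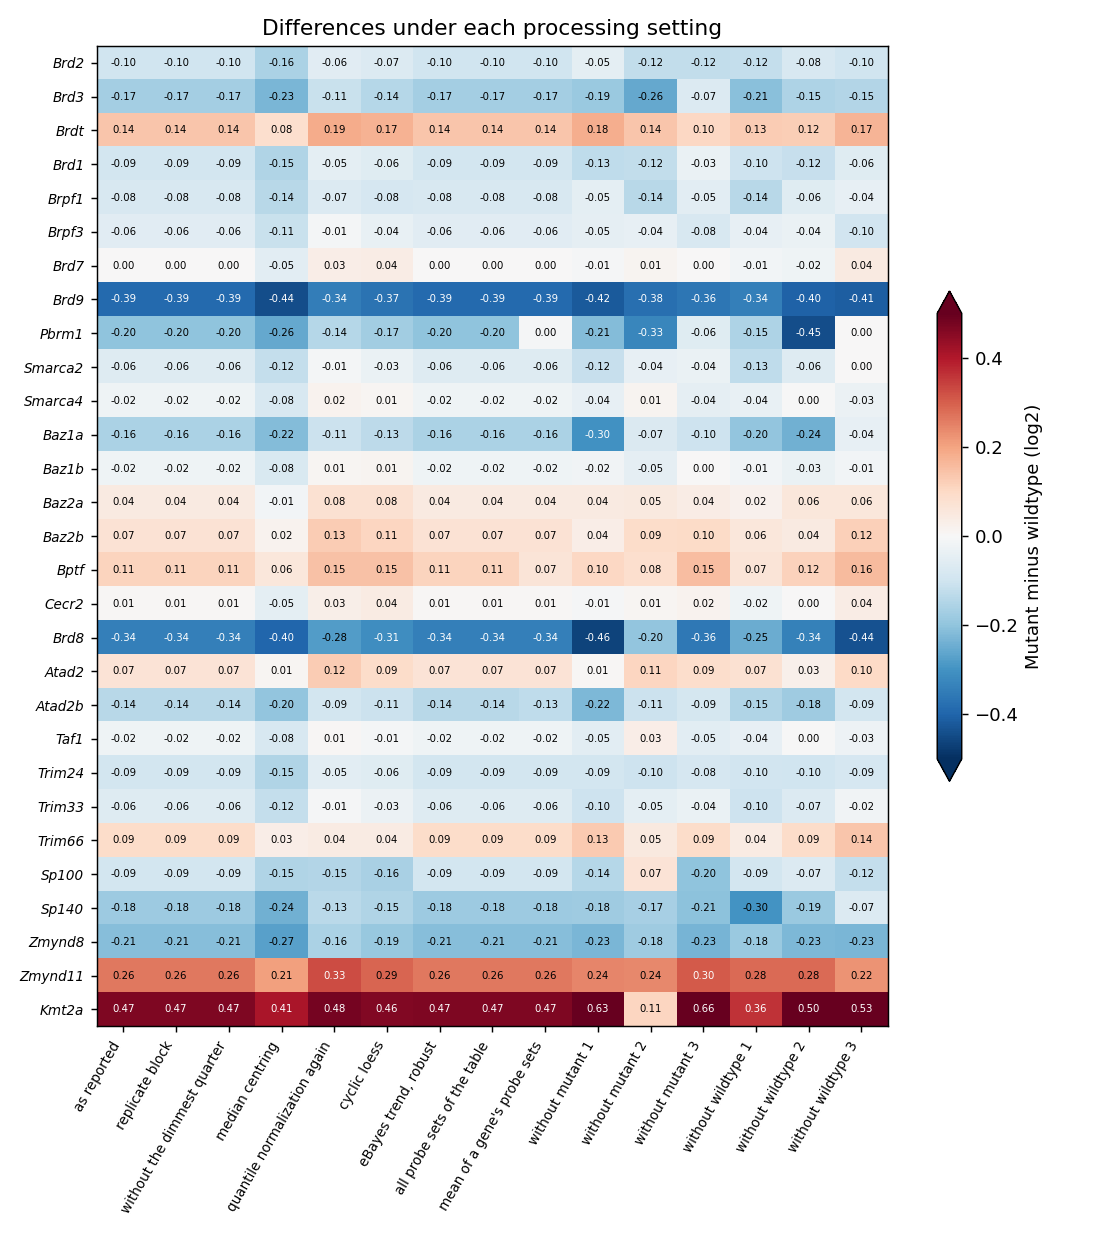
Log2 difference, mutant minus wildtype, of each bromodomain gene (rows) as reported and under 14 alternatives (columns), with the colour scale limited to -0.5 and 0.5. Brd9, Brd8 and Zmynd8 stay negative and Zmynd11 and Kmt2a positive in every column, and Kmt2a drops to 0.11 without mutant 2.

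The partner proteins that carry no bromodomain were measured through 86 genes of the same complexes or of alternative forms of them, listed from textbook knowledge. Of these, 0 passed (limma, Benjamini-Hochberg over all probe sets), 17 had an unadjusted p under 0.05 (19.8%, against 14.7% of all probe sets), 7 higher and 10 lower in the mutant, and the median difference was -0.0050. In SWI/SNF, 6 of 23 partners (26.1%) had an unadjusted p under 0.05, 2 higher and 4 lower. Of all probe sets 7.30% were higher and 7.40% lower at that threshold. The median level was 8.245 for the SWI/SNF partners and 8.403 for the 86. Among the 3159 probe sets with mean levels of 7.26 to 8.71, 22.6% had a limma unadjusted p under 0.05, 548 lower and 167 higher. Smarcd2, a core subunit, was at 8.46, 8.27 and 8.29 in the mutant and 8.64, 8.69 and 8.58 in the wildtype arrays, a difference of -0.30 (limma, adjusted p = 0.175). Dpf3, a reader subunit of BAF, differed by -0.42 (limma, adjusted p = 0.193), and in both genes the groups did not overlap. The scaffold subunits Bicra and Bicral, which occur with Brd9 in non-canonical BAF and are named after their values were seen, differed by -0.03 and 0.22 (limma, adjusted p = 0.904 and 0.340).

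Among the genes listed for MYST acetyltransferase complexes, 3 of 9 were higher at an unadjusted p under 0.05, against 7.30% of all probe sets, and 0 lower. The list includes the Jade genes, alternative scaffolds to the BRPF proteins, so not all 9 are partners of those proteins. Of the 9 differences 6 were above 0 and 3 below, and no difference between complexes was tested. Jade2, an alternative scaffold of the HBO complex, was at a mean of 9.09 in the mutant and 8.81 in the wildtype arrays, a difference of 0.28 (limma, adjusted p = 0.185). Ing4, a reader in the same complex, differed by 0.23 (limma, adjusted p = 0.193). Jade3, a further scaffold of that complex, named after its values were seen, had the largest difference of the 86. It was at 4.99, 5.21 and 5.25 in the mutant, against 4.57, 4.88 and 4.12 in the wildtype arrays, a difference of 0.63 (limma, adjusted p = 0.223). Wildtype 3 lay under the background guide of 4.48 and wildtype 1 just above it, so this difference rests on values near background. In TFIID, 3 of 16 partners were lower at an unadjusted p under 0.05, against 7.40% of all probe sets, and 0 higher. Lower calls also outnumbered higher ones, 548 against 167, among the 3159 probe sets in the level range of the bromodomain genes. The 2 TFIID partners with the smallest p were Taf4b, an oocyte-enriched subunit, at -0.28 and the TATA-binding protein gene Tbp at -0.18 (limma, adjusted p = 0.239 and 0.280). None of these passed.

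In TIP60, 3 of 15 (20.0%) had an unadjusted p under 0.05. The share was 14.7% of all probe sets and 22.6% in the level range of the bromodomain genes. The catalytic subunit Kat5 was at -0.16 and Morf4l2 at 0.16. Among 8 BET partners, 1 (12.5%) had an unadjusted p under 0.05, Nsd3 at -0.33, and the cyclin gene Ccnt2 was at -0.12. Among 8 MLL partners, 1 (12.5%) did, Hcfc1 at 0.19, and Wdr5 was at -0.13. Of 7 ISWI partners, 0 had an unadjusted p under 0.05. Chrac1, whose mean lay under the background guide, was at 0.26 and Rbbp4 at -0.13, and in these 4 complexes 0 partners passed (limma adjusted p).

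**Figure D5:**
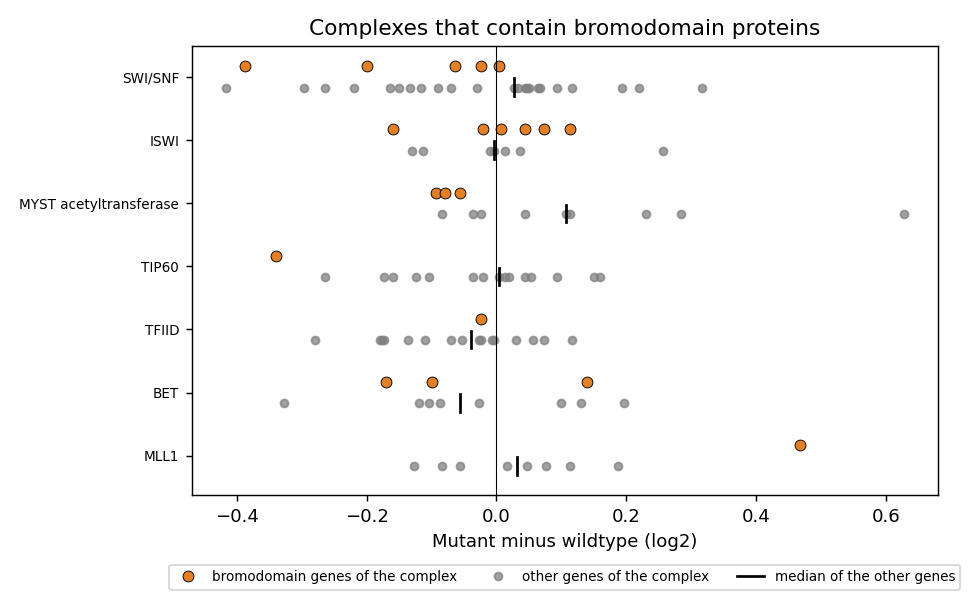
Log2 difference, mutant minus wildtype, of bromodomain genes (orange, upper) and of the other genes listed for the complex or its alternative forms (grey, lower, median as a black bar). Each row is 1 complex. The medians of the other genes run from -0.057 for the BET partners to 0.11 for the MYST acetyltransferase partners, and no gene in the plot passed the adjusted threshold.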

How the data were processed

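Each of the 6 arrays gave 1 column of log2 values, deposited by the authors. The submitters' processing notes name Affymetrix Expression Console 1.1 as the software and RMA as the method. RMA removes background, gives all arrays a common distribution of probe values and then summarises probe sets. Total RNA per oocyte therefore cannot be compared, and differences of dim probe sets are compressed. The medians of the deposited values still differed. They were 4.71, 4.79 and 4.77 in mutant 1, 2 and 3, and 4.71, 4.70 and 4.69 in wildtype 1, 2 and 3. Per the labels' protocols, 1 ng of RNA was amplified. The build used for the annotation was not given in the sources used here.

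Of 35556 probe sets, 21789 had 1 gene symbol, 1621 several and 12146 none listed. The 23410 with a symbol were fitted with limma 3.58.1 in R 4.3.3 (lmFit, eBayes, two-sided, no covariates, 3 mutant against 3 wildtype), with Benjamini-Hochberg adjustment over all of them. All 29 measurable members are named, with up to 2 partners per complex by smallest p. The members and lists were chosen with earlier results of these data known. Sequences are from RefSeq, and motifs were searched as spelled. Alternatives were the replicate number as a block, a filter on dim probe sets, 3 normalizations, eBayes with trend and robust settings, all probe sets, gene means and leaving out each array.

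The fit was tested on simulated data for this comparison (23410 probe sets, 200 changed, 5 runs). It recovered 0.4% of differences of 0.25, 43.6% of 0.5, 90.4% of 1 and 99.6% of 2, with 5.62% of calls false.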

Additional observations from a re-analysis of the deposited data

How the results depend on the processing

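In every one of the 14 alternatives, 0 of 29 bromodomain genes and 0 of 86 partners passed by limma's adjusted p, and Brwd1 passed. The median of the bromodomain genes stayed negative, at -0.09 to -0.03 without 1 array, and Brwd1 stayed at -4.54 to -4.46. Of 406 recomputed member differences 18 changed sign, all in 8 genes. Of these, Sp100 had a difference of -0.09 and the other 7 were nearer 0. After median centring Brd7 was at -0.053, Baz2a at -0.013 and Cecr2 at -0.050. By quantiles Smarca4 was at 0.017, Baz1b at 0.0089 and Taf1 at 0.0072, and by cyclic loess Smarca4 at 0.0098 and Baz1b at 0.014. Without 1 array the differences ran from -0.020 to 0.045 for Brd7, -0.022 to 0.038 for Cecr2, -0.045 to 0.015 for Smarca4, -0.052 to 0.033 for Taf1, -0.20 to 0.067 for Sp100, -0.047 to 0.0033 for Baz1b and -0.13 to 0.0017 for Smarca2. The partner median turned to 0.016 by quantiles and 0.0063 by cyclic loess, and ran from -0.029 to 0.0025 without 1 array.

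Of the 29 bromodomain genes, 6 had an unadjusted p under 0.05 after median centring, where 15.7% of all probe sets did. Without 1 array 3 to 6 did, with 6 without mutant 1, against 11.2% to 15.2% of all probe sets. Groups did not overlap for 7 to 14 of the 29 without 1 array, against 27.7% to 33% of all probe sets. Over all probe sets, the count called was 32, against 76 with trend and robust settings, and 1 with all probe sets of the table. It was 1, 3 and 10 without mutant 1, 2 and 3, and 1, 1 and 18 without wildtype 1, 2 and 3. It was 1 with the replicate number as a block, and no member's call changed. Deviations of same-numbered mutant and wildtype arrays correlated at -0.0015, -0.031 and 0.036 across probe sets, so they shared no strong shift. Whether same-numbered samples were handled together cannot be told from these correlations. The causes were not tested. In the simulation, with 3 arrays a group, changes of 0.25 on the log2 scale were rarely called at the adjusted threshold. A small shift in any of these genes could therefore go uncalled.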
